A study of Mus musculus with 8 samples.

Results

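The Ly6 genes encode small proteins with a three-finger fold, most of them held on the outer face of the cell membrane by a lipid (GPI) anchor, and the mouse carries a dense cluster of them on chromosome 15. Their levels in kidney were compared between NZBWF1 mice aged 28 weeks and mice aged 8 weeks. Of 10 Ly6 genes looked for by symbol, Ly6a, Ly6c1, Ly6c2, Ly6d, Ly6e, Ly6f, Ly6g, Ly6h, Ly6i and Ly6k, 8 had a probe on the array, each of them a single probe, among 19505 named genes in all. Ly6a, which encodes the stem cell antigen Sca-1, and Ly6g, the common marker of neutrophils, had no probe under their symbols and were not analysed here. The genes were chosen by name, and the family was singled out with the low level of Ly6f at 28 weeks already known, so the values of Ly6f are given as a description with no test.

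NZBWF1 mice, a first-generation cross between NZB and NZW, develop a lupus-like nephritis as they age. Kidney RNA from 4 mice aged 28 weeks (replicates 6 to 9 in the labels) and 4 mice aged 8 weeks (replicates 1 to 4) was hybridized to Clariom S Mouse arrays, with 1 array for each mouse and no treatment given in the labels. All 8 mice were of the one strain, without a control strain of the same ages, so age and any disease that comes with it cannot be told apart. The labels name the tissue only as kidney, and in such bulk RNA a change in the number of cells of a type and a change in RNA per cell cannot be told apart. Values are log2 values from robust multi-array averaging (RMA). Array medians lay between 5.98 and 6.14. The kidney label was checked on 18 proximal tubule markers, whose mean log2 value was 14.96 to 15.47 at 28 weeks and 15.73 to 15.81 at 8 weeks. Among 28-week mice, replicate 7 stood apart. In the 973 probes whose 28-week values all lay above the 8-week values it was the 28-week mouse nearest to the 8-week mean in 54.5%, and in the 961 probes with all 28-week values below, in 50.1%.

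Members of the family differ in where they are made. Ly6c2 marks inflammatory monocytes and is also found on plasma cells and some T cells, Ly6c1 is prominent on the endothelium of small vessels, and Ly6d marks early B-lineage cells and stratified epithelia. Ly6e is switched on by interferon in many cell types and limits the entry of some viruses. Ly6k is made in the testis, and Ly6h in the brain, where it acts on nicotinic acetylcholine receptors. The genes arose by duplication and several remain near copies of each other, so probes of Ly6f, Ly6i, Ly6c1 and Ly6c2 may share signal and their separate values carry that uncertainty. The sequences below are of the reference genome, and the match of NZB and NZW alleles to them and to the array probes was not tested.

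The likeness of these genes can be seen upstream of their starts. RefSeq sequence of build GRCm38.p6 was at hand for 3 of the 8 measured members, Ly6f, Ly6c1 and Ly6c2, and all 3 are shown. Mean values at 28 weeks were lower for Ly6f and higher for Ly6c1 and Ly6c2. Each sequence ends just before the outermost annotated start of its gene and is written 5′ to 3′ on the strand of the gene, at chr15:75268171-75268371 on the plus strand for Ly6f, chr15:75048921-75049087 on the minus strand for Ly6c1 and chr15:75112067-75112221 on the minus strand for Ly6c2. Capitals mark every stretch of 10 or more bases that stands unchanged in all 3 sequences.
Ly6f: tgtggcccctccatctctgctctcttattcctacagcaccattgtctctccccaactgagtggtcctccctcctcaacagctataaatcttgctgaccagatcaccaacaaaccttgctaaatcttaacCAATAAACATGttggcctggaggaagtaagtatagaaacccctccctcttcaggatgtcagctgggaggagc
Ly6c1: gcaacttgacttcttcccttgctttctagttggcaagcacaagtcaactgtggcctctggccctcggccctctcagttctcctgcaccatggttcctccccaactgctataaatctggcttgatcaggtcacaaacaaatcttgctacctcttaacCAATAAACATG
Ly6c2: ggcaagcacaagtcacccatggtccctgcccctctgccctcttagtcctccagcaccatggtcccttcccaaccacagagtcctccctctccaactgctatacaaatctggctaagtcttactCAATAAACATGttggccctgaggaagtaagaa
The 3 windows held 1 such stretch, of 11 bases, CAATAAACATG. Ly6f was identical to Ly6c1 at 99 of 116 aligned bases (85.3%) and to Ly6c2 at 111 of 137 (81.0%), and Ly6c1 to Ly6c2 at 102 of 130 (78.5%). Bases opposite a gap and unpaired ends were not counted, so these shares cover only part of the 201, 167 and 155 bases of Ly6f, Ly6c1 and Ly6c2. Motifs were then sought on both strands in the 300-base window of each gene around its start. The TATA box, spelled TATAAA, and the CCAAT box, spelled CCAAT, were present for Ly6f and Ly6c1 and not for Ly6c2, and all windows in the table held them in 13.6% and 37.4% of cases. None of the 3 windows held the interferon response element core (GAAA, then 2 bases of any kind, then GAAA, found in 3.44% of all 32851 windows), the gamma-activated site TTCNNNGAA (8.3%), the clock E-box CACGTG (7.15%) or the D-box TTATGTAA (0.938%). A match in letters is a description of the window and not a binding site.

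Ly6f was lower at 28 weeks in every mouse. Its log2 value was 7.48, 7.41, 6.46 and 6.71 in 28-week replicates 6, 7, 8 and 9, against 9.0, 9.98, 9.97 and 10.05 in 8-week replicates 1, 2, 3 and 4. The ages did not overlap, and the highest 28-week value lay 1.52 log2 units under the lowest 8-week value. The means were 7.015 ± 0.51 at 28 weeks and 9.75 ± 0.50 at 8 weeks (SD, n = 4 each), a log2 difference of -2.735, or 6.66-fold lower. Beside it, 4.33% of all probes lay wholly lower at 28 weeks, and 8.71% did not overlap in either direction, which is background only, since the low level of Ly6f chose the family. Ly6f in 28-week replicate 7 deviated by -2.34 log2 units from the 8-week mean, and the deviations of the other 28-week mice were -2.27, -3.29 and -3.04. The 28-week mouse nearest to the 8-week mean was replicate 6, with replicate 7 close to it. The family was singled out with low Ly6f known, which favours a gene low in every 28-week mouse. The place of Ly6f in replicate 7 is thus a description only. The lowest 8-week value was that of replicate 1, with the other 8-week mice at 9.97 to 10.05.

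**Figure D1:**
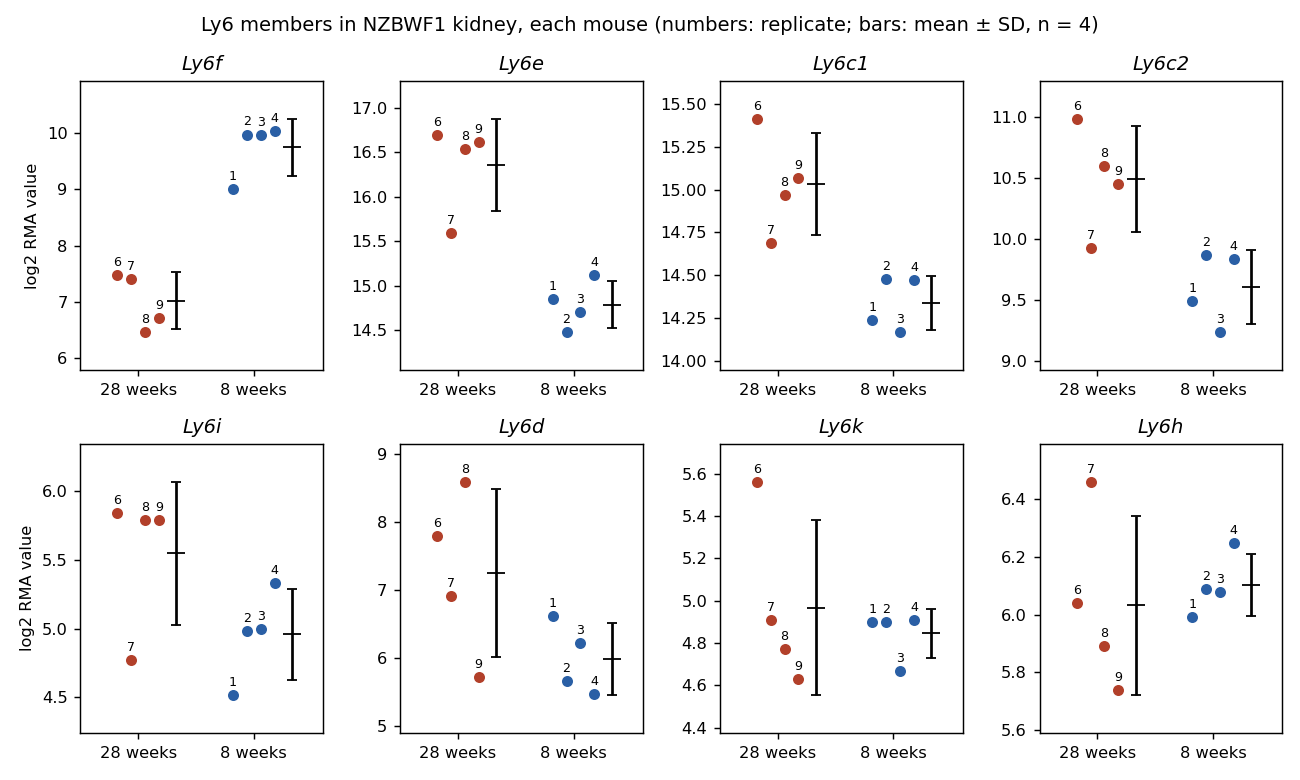
Log2 RMA value of the 8 measured Ly6 members, 1 panel per gene with its own vertical axis, in each mouse at 28 weeks (left, red) and at 8 weeks (right, blue). Numbers are replicates, and black bars are mean ± SD (n = 4). Ly6f lies between 6.46 and 7.48 at 28 weeks, under all 8-week values, and Ly6e, Ly6c1 and Ly6c2 lie above all their 8-week values, with 28-week replicate 7 the lowest of the 28-week mice in each.

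Of the other 7 measured members, Ly6e was the only one past an adjusted p of 0.05 (limma, Benjamini-Hochberg adjustment over all 22206 probes), and it rose. Over the array 0.446% of probes were called higher, 0.522% lower and 0.968% in all. Ly6e stood at 16.69, 15.59, 16.53 and 16.61 in 28-week replicates 6, 7, 8 and 9, against 14.85, 14.48, 14.70 and 15.12 in 8-week replicates 1 to 4. All 28-week values were above all 8-week values, with replicate 7 nearest to them. Ly6e averaged 16.355 ± 0.51 at 28 weeks and 14.79 ± 0.27 at 8 weeks (SD, n = 4 each), 2.96-fold higher with a 95% confidence interval of 2.01 to 4.37 (adjusted p = 0.0308). Without 28-week replicate 7 the log2 difference was 1.82 (adjusted p = 0.000536). That array held the lowest 28-week value of Ly6e, so leaving it out had to raise the difference. The lower p is no added support for the call. The call ended without any other single array, at adjusted p between 0.058 and 0.123 and log2 differences of 1.46 to 1.68.

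The close pair Ly6c1 and Ly6c2 also had values at 28 weeks that lay wholly above those at 8 weeks. Ly6c1 was 15.41, 14.69, 14.97 and 15.07 in 28-week replicates 6, 7, 8 and 9, against 14.24, 14.48, 14.17 and 14.47 in 8-week replicates 1 to 4. The log2 difference of Ly6c1 was 0.695 (95% confidence interval 0.31 to 1.08, adjusted p = 0.0929). Ly6c2 was 10.98, 9.93, 10.60 and 10.45 in 28-week replicates 6, 7, 8 and 9, against 9.49, 9.87, 9.24 and 9.84 in 8-week replicates 1 to 4. Its log2 difference was 0.88 (95% confidence interval 0.36 to 1.40, adjusted p = 0.106), and the gap between the ages was 0.06, set by replicate 7. With Ly6e, 3 of the 7 members did not overlap between ages and were higher, beside 4.38% of all probes. Over the 8 arrays Ly6c1 and Ly6c2 followed each other closely (Pearson r = 0.98, a description over arrays of the same 2 ages, from probes that may share signal).

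Ly6i, a close relative of the Ly6c genes, overlapped between ages through a single mouse. It was 5.84, 4.77, 5.79 and 5.79 in 28-week replicates 6, 7, 8 and 9, against 4.52, 4.98, 5.0 and 5.33 in 8-week replicates 1 to 4. Replicate 7 lay inside the 8-week range and the other 28-week mice above it (log2 difference 0.59, 95% confidence interval 0.0017 to 1.18, adjusted p = 0.332). Without 28-week replicate 7, Ly6c1, Ly6c2 and Ly6i all passed, with log2 differences of 0.81, 1.07 and 0.85 and adjusted p of 0.0247, 0.0174 and 0.0372. That array was singled out by its nearness to the 8-week mean. It was the lowest 28-week array for each of these genes, so leaving it out had to raise their differences. In that fit 4 of the 7 members were called higher, beside 3.63% of all probes, and 4 also when 8-week replicate 1 was left out as well, beside 4.19%. With limma's trend and robust options Ly6c1 joined Ly6e (adjusted p = 0.0453), beside 0.824% of all probes called higher.

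Ly6d, Ly6k and Ly6h did not pass the threshold. Ly6d was 7.79, 6.92, 8.59 and 5.72 in 28-week replicates 6, 7, 8 and 9, against 6.62, 5.66, 6.22 and 5.47 in 8-week replicates 1 to 4. Replicates 6, 7 and 8 were above the 8-week range and replicate 9 was inside it (log2 difference 1.26, 95% confidence interval 0.09 to 2.44, adjusted p = 0.294). The difference of Ly6d was 0.82 without 28-week replicate 8 and 1.77 without replicate 9. Ly6k averaged 4.97 ± 0.41 at 28 weeks and 4.845 ± 0.12 at 8 weeks (SD, n = 4 each, adjusted p = 0.856), and its highest value, 5.56, was in 28-week replicate 6. Ly6h averaged 6.03 ± 0.31 at 28 weeks and 6.10 ± 0.11 at 8 weeks (SD, n = 4 each, adjusted p = 0.907). The 95% confidence intervals of the log2 difference were -0.33 to 0.57 for Ly6k and -0.45 to 0.31 for Ly6h, so these arrays do not exclude a change within those bounds. The median log2 difference of the 7 members other than Ly6f was 0.695, against -0.01 over all probes.

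**Figure D2:**
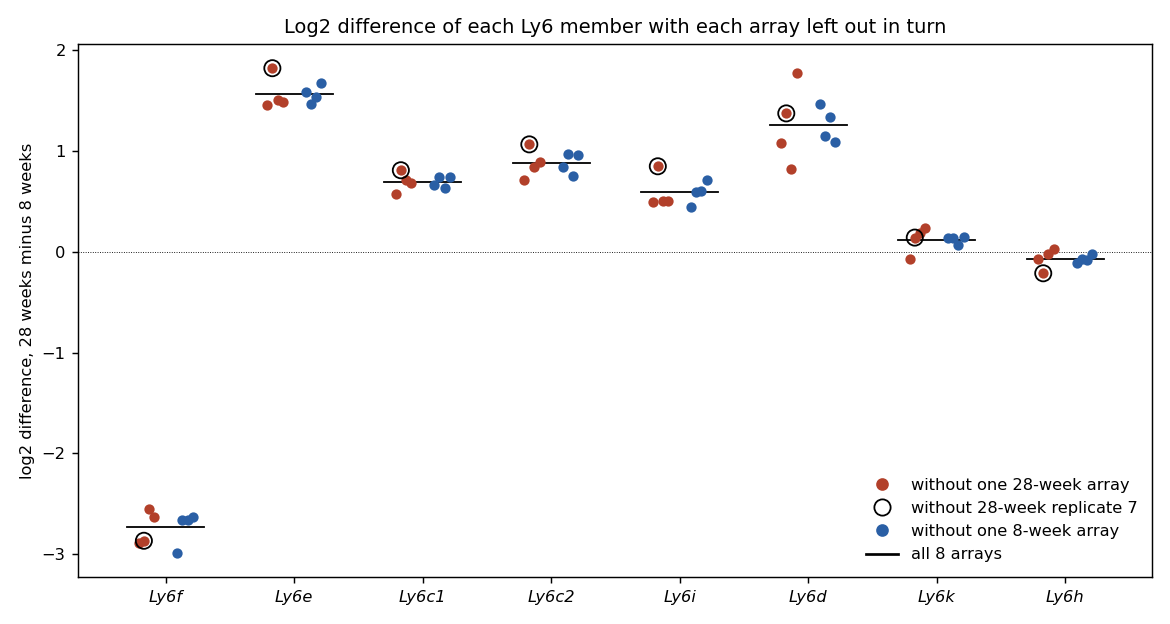
Log2 difference, 28 weeks minus 8 weeks, of each measured Ly6 member with each array left out in turn (red, a 28-week array; blue, an 8-week array; circled, 28-week replicate 7) and with all 8 arrays (black line). Without replicate 7 the differences of Ly6e, Ly6c1, Ly6c2 and Ly6i were at their highest, 1.82, 0.81, 1.07 and 0.85, while Ly6f stayed between -2.985 and -2.55 over the 8 fits.

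In their order along chromosome 15 the measured members run Ly6d, Ly6k, Ly6e, Ly6i, Ly6c1, Ly6c2, Ly6f and Ly6h, with 6 other measured genes among them. Ly6f, with the most negative difference of the 24 genes, thus follows directly on Ly6c2 among the measured genes, and the 4 members before it, Ly6e to Ly6c2, had positive differences of 0.59 to 1.57. None of the 6 genes in between and none of the 5 on either side passed the threshold in limma. Of these 16 genes 3 had an unadjusted p under 0.05 (15% of all probes did), and the 16 log2 differences had a median of -0.04. Several of them were dim. Gml, Gml2, Cyp11b1, Cyp11b2 and Ly6m, in between, had mean values at percentiles 18.3, 0.9, 5.1, 12.2 and 6.5 of all probes. Slurp1 and Mafa, outside, were at 20.1 and 1.2. At such levels a change may not show, so a missing call there does not mean no change. Next to Ly6f on its other side lies 9030619P08Rik, annotated as a transcribed pseudogene. It was 12.70, 13.99, 12.28 and 11.67 in 28-week replicates 6, 7, 8 and 9, against 14.07, 14.11, 13.81 and 13.92 in 8-week replicates 1 to 4. It was lower than every 8-week value in 28-week replicates 6, 8 and 9 and within the 8-week range in replicate 7 (log2 difference -1.32, adjusted p = 0.144). Without replicate 7 its log2 difference was -1.76 (adjusted p = 0.00244). The adrenal steroid genes Cyp11b1 and Cyp11b2, which lie inside the cluster and were among the dim genes, differed by -0.06 and -0.01. Gpihbp1, which carries lipoprotein lipase across the capillary wall and lies just beyond Ly6h, differed by 0.16.

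**Figure D3:**
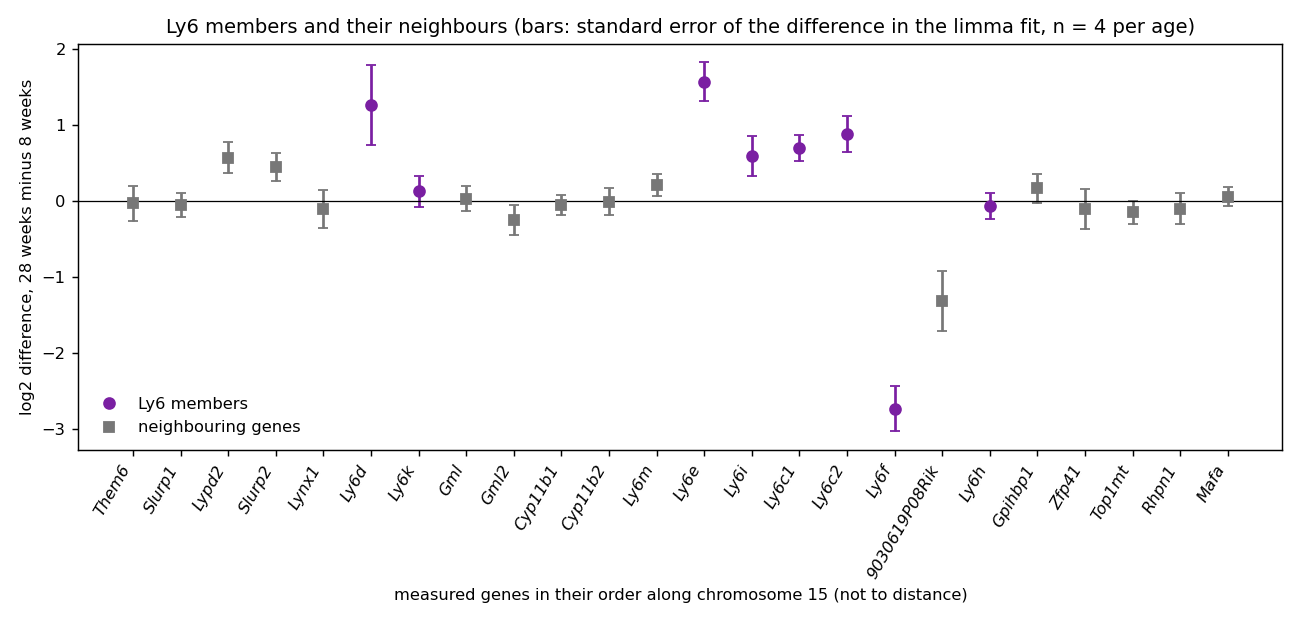
Log2 difference, 28 weeks minus 8 weeks, of the measured Ly6 members (circles) and of the measured genes among and beside them (squares), in their order along chromosome 15 without distances. Bars are the standard error of the difference (n = 4 per age). Ly6f at -2.735 stands between Ly6c2 at 0.88 and 9030619P08Rik at -1.32.

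Across the wider Ly6 and urokinase receptor family 35 of 40 symbols looked for were measured, and none passed the threshold with all arrays in limma. An unadjusted p under 0.05 was found for 5 of the 35, a share near the 15% of all probes. There were 18 positive and 17 negative differences and a median of 0.02. The mean over the 35 genes was 5.14 to 5.30 at 28 weeks and 5.06 to 5.15 at 8 weeks, under every array median. Tex101, Gml2, Lypd4 and Lypd11 had mean values at percentiles 0.95, 0.91, 2.35 and 2.5 of all probes. At such levels a change may not show, so the signs and the median say little about the dim genes. The smallest p was that of Plaur, the urokinase receptor, found on activated leukocytes and injured epithelium. Plaur was 5.43, 4.86, 5.59 and 6.05 in 28-week replicates 6, 7, 8 and 9, against 4.48, 4.84, 4.41 and 4.53 in 8-week replicates 1 to 4 (adjusted p = 0.0966). The ages did not overlap, and replicate 7 was 0.02 above the highest 8-week mouse. Plaur, higher, and 9030619P08Rik, lower, were the 2 genes of this family called without replicate 7, beside 3.63% of probes called higher and 1.95% lower. For both, replicate 7 was the 28-week mouse nearest to the 8-week mean, so leaving it out had to widen the difference. The same 2 genes were called without both replicate 7 and 8-week replicate 1, beside 4.19% and 2.04%. With array weights Plaur alone was called, beside 2.36% higher. The largest mean difference, 3.08, was that of Psca, prostate stem cell antigen, but its values overlapped, at 9.88, 8.04, 7.93 and 4.99 in 28-week replicates 6 to 9 and 7.12, 3.75, 3.30 and 4.34 in 8-week replicates 1 to 4 (adjusted p = 0.178). Both Psca and Ly6d had their lowest 28-week value in replicate 9 and their highest 8-week value in replicate 1. Lypd2 and Slurp2, a secreted member, had log2 differences of 0.565 and 0.445 (adjusted p = 0.216 and 0.274). The complement inhibitor genes Cd59a and Cd59b differed by 0.05 and -0.035.

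Levels of cell type and interferon genes were set beside the members, mouse by mouse. Counts at an unadjusted p under 0.05 in these lists stand beside 15% of all probes. Among 28 type I interferon-stimulated genes Isg15 and Ddx58 rose (0.446% of all probes were called higher), no gene was called lower, and 27 differences were positive, with a median log2 difference of 0.81 (-0.01 over all probes). The mean over these genes was 6.24 to 7.80 at 28 weeks and 6.08 to 6.31 at 8 weeks. Relative to the 8-week mean it was 1.6, 0.97 and 1.06 higher in 28-week replicates 6, 8 and 9 and 0.04 higher in replicate 7. In replicate 7 the mean of the list thus lay within its 8-week range. The 2 called genes lay above theirs, Isg15 at 5.10 against at most 4.47 and Ddx58 at 9.61 against at most 9.22. Their call came from these same arrays and favours genes that are high in every 28-week mouse, so their place in replicate 7 is a description only. In all, 4 of the 28 genes lay wholly higher at 28 weeks, beside 4.38% of all probes. Ly6e, picked out by the same call, was also above every 8-week value in replicate 7. It lay 0.80 above its 8-week mean there, with Isg15 0.805 and Ddx58 0.5675 above their own. Mean values were at percentile 98.6 of all probes for Ly6e and 33.2 for Isg15. RMA compresses folds of dim probes, so the distances of Ly6e and Isg15 do not compare in size. Ly6i, with a deviation of -0.19 from its 8-week mean in replicate 7, was inside its 8-week range. Of 17 interferon-gamma-induced genes all had a positive difference and none passed in limma (median 1.15, 12 at an unadjusted p under 0.05), with a mean level of 6.17 to 7.82 at 28 weeks and 5.91 to 6.35 at 8 weeks. The smallest p in that list were those of the chemokine gene Cxcl10 (log2 difference 1.79, adjusted p = 0.0501, with 5.62 in 28-week replicate 7 against at most 5.34 in 8-week mice) and the GTPase gene Igtp (1.755, adjusted p = 0.0752). The part of interferon in the Ly6e difference was not tested.

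Markers of the cells known to carry Ly6c and the unmeasured Ly6g were looked at next. Of 22 monocyte and macrophage markers none passed in limma, 19 had an unadjusted p under 0.05 and 21 differences were positive, with a mean level of 5.97 to 9.01 at 28 weeks and 5.69 to 6.12 at 8 weeks. This level was 3.14, 2.56 and 2.34 above the 8-week mean in 28-week replicates 6, 8 and 9 and 0.10 above it in replicate 7, and Ly6c2 was 1.37, 0.99 and 0.84 above its own in the same 3 mice and 0.32 above it in replicate 7. Lyz2, a lysozyme gene of myeloid cells, and Fcer1g, the signalling chain of Fc receptors, had log2 differences of 4.54 and 3.99 (adjusted p = 0.0607 and 0.0777). None of 19 endothelial markers passed (3 at an unadjusted p under 0.05, a share near that of all probes), and their mean level was 8.12 to 8.69 at 28 weeks and 8.15 to 8.35 at 8 weeks, with 28-week replicate 6 the highest. That mouse was also the highest 28-week mouse for Ly6c1, Ly6c2, Ly6e, Ly6f, Ly6i and Ly6k. It was the highest too for both interferon lists and for the monocyte, T cell, B cell and urothelial lists. Of the endothelial markers the adhesion gene Cdh5 had a log2 difference of 0.675 (adjusted p = 0.166) and the receptor gene Kdr one of -0.40 (adjusted p = 0.184). Of 15 neutrophil markers none passed (2 at an unadjusted p under 0.05, again near that share), with a mean level of 3.92 to 4.11 at 28 weeks and 3.68 to 4.01 at 8 weeks. Csf3r and Trem1 had the smallest p there (log2 differences 1.30 and 0.815, adjusted p = 0.0853 and 0.101). The 12 T cell markers averaged 4.95 to 5.64 at 28 weeks and 4.79 to 4.96 at 8 weeks, and the 16 B cell and plasma cell markers 5.13 to 6.23 at 28 weeks and 4.90 to 4.97 at 8 weeks, with no member of either list past the threshold and 5 and 6 at an unadjusted p under 0.05. Cd3e and Icos led the T cell list (log2 differences 1.085 and 0.73, adjusted p = 0.105 and 0.2), and Jchain and Sdc1 the other (4.77 and 0.52, adjusted p = 0.0971 and 0.15). Which of these cells carried the Ly6c1 and Ly6c2 signal was not tested.

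The list of 15 urothelial and squamous markers, the epithelia that carry Ly6d, had no member past the threshold, 2 at an unadjusted p under 0.05, near the share of all probes, and averaged 5.50 to 6.20 at 28 weeks and 5.09 to 5.75 at 8 weeks. Among 28-week mice it was lowest in replicate 9 and among 8-week mice highest in replicate 1, the same 2 mice as for Ly6d, and its part in the Ly6d values was not tested. Upk3b and Sprr1a had the smallest p in it (log2 differences 1.07 and 1.21, adjusted p = 0.303 and 0.332).

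Of 18 proximal tubule markers 2 fell and none rose, beside 0.522% of all probes called lower. All 18 differences were negative, with a median of -0.39 (-0.01 over all probes). Slc22a30 and Slc22a6, transporter genes of that segment, fell by 1.80 and 0.91 on the log2 scale (adjusted p = 0.000795 and 0.0313). The mean of the list deviated by -0.72, -0.28, -0.60 and -0.80 log2 units from the 8-week mean in 28-week replicates 6, 7, 8 and 9, where Ly6f deviated from its own by -2.27, -2.34, -3.29 and -3.04. Among these mice the smallest deviation of Ly6f was that of replicate 6, close to that of replicate 7, and the smallest of the list was that of replicate 7. Slc22a30 deviated by -1.89, -1.93, -1.59 and -1.79 in replicates 6 to 9, and Slc22a6 by -0.85, -0.97, -0.75 and -1.09. These 2 were called on the same arrays, and Ly6f was singled out by its low level there. Both choices favour genes low in every 28-week mouse. Markers wholly lower at 28 weeks numbered 8 of the 18, beside 4.33% of all probes. Of 11 markers of other nephron segments and of podocytes none passed (5 at an unadjusted p under 0.05), and the smallest p were those of the distal calcium-binding gene Calb1 (log2 difference -2.71, adjusted p = 0.0752) and the thick limb transporter gene Slc12a1 (0.99, adjusted p = 0.0916). The part of tubule cells in the Ly6f difference was not tested.

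**Figure D4:**
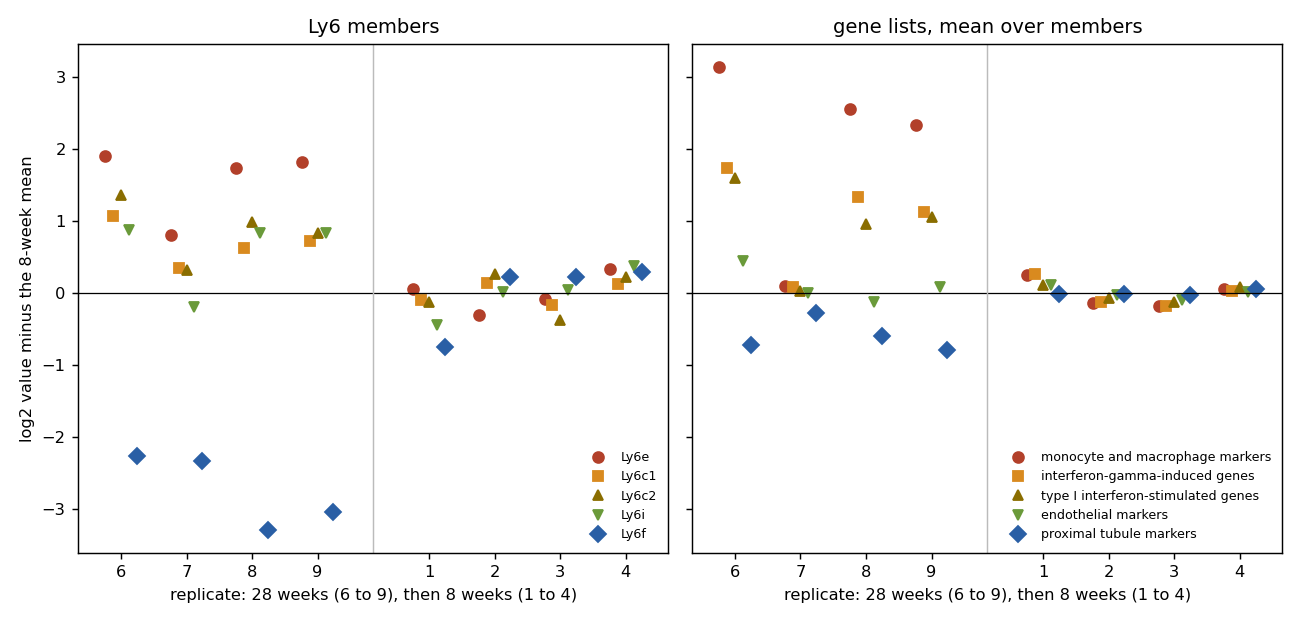
Log2 value minus the 8-week mean in each mouse, for 5 Ly6 members (left) and for the mean over the members of 5 gene lists (right), with 28-week replicates 6 to 9 before 8-week replicates 1 to 4. In 28-week replicate 7 the type I interferon list mean lies 0.04 and the monocyte list mean 0.10 above the 8-week mean. In that mouse Ly6e, called on these same arrays, lies at 0.80 and Ly6f, singled out by its low level, at -2.34. Both choices favour genes that differ in every 28-week mouse, so these places are a description only. Isg15, a dimmer gene of the interferon list called on these same arrays and not drawn, lies at 0.805.

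The genes whose pattern over the 8 arrays was most like that of Ly6f, among 18450 named genes, were Slc5a6, a vitamin transporter gene, with a Pearson r of 0.985, Fbxo7 (0.978), Hyi (0.977), Dpep1, a dipeptidase gene of the proximal tubule brush border (0.977), Ubxn2b (0.9735) and Lpl, the lipoprotein lipase gene (0.969). All had lower means at 28 weeks, and in 28-week replicate 7 Slc5a6 stood at 8.22 and Lpl at 10.09, where the 28-week means were 8.205 and 10.01 and the 8-week means 9.59 and 12.11. For Ly6e they were Vcam1, a leukocyte adhesion gene (r = 0.985), Tmem165 (0.984), the actin-binding gene Cald1 (0.9835), the NF-kappa-B subunit gene Rela (0.983), Septin7 (0.981) and Hells (0.980). Vcam1 was 8.01 in 28-week replicate 7, where its means were 9.735 at 28 weeks and 7.12 at 8 weeks. These correlations follow the split between the ages and come from the same 8 arrays. They describe likeness only.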

How the data were processed

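Trizol-extracted kidney RNA was made into biotinylated cRNA, per the labels' protocols. The authors deposited log2 expression values, made with RMA per the submitters' processing notes, its version not given in the sources used here. Base 2 was inferred from the range of the values, 2.31 to 19.89, and folds rest on that. RMA compresses folds of dim probes and gives no detection call.

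Genes were named from the platform annotation (19572 of 22206 probes had 1 symbol, 0 several and 2634 none), and no probe was filtered out. The difference, 28 weeks minus 8 weeks, was fitted over all probes with lmFit and eBayes in limma 3.58.1 (R 4.3.3), with Benjamini-Hochberg adjustment and a threshold of 0.05. The code was tested on simulated data. Each array is 1 mouse, per the series' design. The sources used here name no batch. Depth does not apply to arrays, and their number limits the precision.

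The members, the 11 gene lists (227 entries) and the rules were chosen with earlier results of these data known. Text names all members, the 5 wider-family genes of smallest p, up to 4 called members of a list or else the 2 of smallest p, chromosomal neighbours in RefSeq's order, and the 6 genes of highest r to Ly6f and Ly6e. The same was planned for Ly6a, which had no probe. Cd59a and Cd59b were named after their values were seen. One family entry, 2010109I03Rik, is an older name of Ly6m. Alternatives were other scalings, a filter on dim probes, other variance models, array weights and arrays left out. Python 3.11.15 was used with pandas 2.3.3 for tables and with matplotlib 3.10.9 for figures.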

Additional observations from a re-analysis of the deposited data

Results flagged for a closer look

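In 4 of the 26 groups of 4 arrays examined, for the 8 members and the 5 wider-family genes named, a single mouse lay far from the other 3 of its age. The criterion was a gap to the nearest mouse, divided by the whole range, above Dixon's 95% critical value, and chance flags about 1 in 20 groups. In 28-week replicate 7 Ly6e was 15.59, against 16.53 to 16.69 in the other 28-week mice (ratio 0.8545). In the same mouse Ly6i was 4.77, against 5.79 to 5.84 (ratio 0.953). In 8-week replicate 1 Ly6f was 9.0, against 9.97 to 10.05 in the other 8-week mice (ratio 0.924). In 8-week replicate 3 Ly6k was 4.67, against 4.90 to 4.91 (ratio 0.958).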

How the results depend on the processing

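No paired analysis was possible because the ages share no replicate number. The 15 alternatives were 7 other settings and 8 fits without 1 array each, and no member had a further probe to try. Ly6f was lower in all 15, with log2 differences of -3.12 to -2.735 under the other settings and -2.985 to -2.55 without 1 array. Since its ages did not overlap, leaving out or weighting arrays could not turn its direction. Trend and robust options and the filter on dim probes leave any log2 difference as it is, so the Ly6f values are a description only. Ly6e stayed past the threshold in the 7 other settings. With trend and robust options Ly6c1 passed at 0.695 (adjusted p = 0.0453), and 2 members other than Ly6f and 399 probes passed. Without both 28-week replicate 7 and 8-week replicate 1, 4 such members, 2 wider-family genes and 1384 probes passed, with differences of 0.78 for Ly6c1, 1.03 for Ly6c2 and 0.70 for Ly6i. With array weights 1 wider-family gene, Plaur, and 873 probes passed. Without 1 array each, differences ranged over 1.46 to 1.82 for Ly6e, 0.57 to 0.81 for Ly6c1, 0.72 to 1.07 for Ly6c2, 0.44 to 0.85 for Ly6i, 0.82 to 1.77 for Ly6d, -0.075 to 0.235 for Ly6k (negative without 28-week replicate 6) and -0.21 to 0.0275 for Ly6h (positive without 28-week replicate 9). The counts passing ranged over 0 to 4 members other than Ly6f, 0 to 2 wider-family genes and 25 to 1237 probes, of 215 with all arrays, and were highest without 28-week replicate 7. Fewer arrays enter those fits. Otherwise the cause was not tested.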
